A study of Mus musculus with 12 samples.

Results

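The transcriptional response to oxidised low-density lipoprotein (OxLDL) was described in macrophages carrying the R150X allele of Gpnmb. Every library of R150X bone marrow-derived macrophages (BMDMs, macrophages grown in culture from bone marrow cells) was used: 3 from untreated and 3 from OxLDL-treated cells, 6 of the 12 mouse libraries in the series. The other 6 came from control cells, here called WT, untreated or given OxLDL, and were used where the response of the genotypes was compared. Both genotypes had the same labelled strain background, DBA/2 crossed and then backcrossed to C57BL/6, and differed by label in genotype alone. The labels name no transgene or Cre. OxLDL dose, time in culture, sex and age of the mice, batch, and whether the 3 libraries of a group were separate mice, cultures or preparations were not given, so the p-values measure the spread between libraries, which may be technical. The study asked how GPNMB acts on the formation of foam cells. Genes entered by passing a filter on low counts: 15338 of the 54532 listed genes were tested.

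Foam cells are macrophages that have taken up modified lipoprotein and stored its cholesterol as esters in lipid droplets. Scavenger receptors such as CD36 bind OxLDL, the lysosome frees its cholesterol, and the cell then stores cholesterol, exports it through LXR target transporters, and switches off its own synthesis through the SREBP2 pathway. Fatty acids and oxidised lipids are ligands of the PPAR receptors, which turn on lipid storage and oxidation genes. The MiT/TFE factors, which regulate lysosomal genes, also control GPNMB, a glycoprotein of the cell and lysosomal membranes. The R150X allele replaces an arginine codon with a stop codon.

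Libraries held 14838969 to 18222868 counts. Values are given as CPM, counts scaled to a common normalised library size, which compare 1 gene between libraries but not the levels of genes of different length. Component 1 of a principal component analysis (57.3% of the variance) separated the treatments and component 2 (15.9%) the genotypes. Replicate 1 of the untreated R150X group stood apart from its replicates, at 9.61 and 10.5 chi-square units per degree of freedom against 2.37 to 4.87 for all other pairs within a group. In that library the 3833 shortest genes (up to 2394 exonic bases) lay a median of 0.12 log2 units above the group's other 2 libraries and the 3833 longest (6421 or more) lay -0.13 from them. All 7 defining macrophage markers were abundant: in R150X libraries Lyz2 lay between 14887 and 17210 CPM, Csf1r between 1018 and 1442, Adgre1 between 748 and 2867, Cd68 between 851 and 1316, Itgam between 226 and 336, Mertk between 109 and 173, and Fcgr1 between 64.5 and 201. The T cell marker Cd3e had 0 to 3 counts a library. Collagen transcripts were abundant in every R150X library, and their values stand beside the matrix genes. Every R150X library held both Xist and Y-linked transcripts, whereas Xist was at most 2.75 CPM in WT.

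The mutated gene was measured first. Gpnmb (ENSMUSG00000029816, chr6:49036546-49070929, plus strand of GRCm38) stood at 363, 382 and 411 CPM in the 3 untreated R150X libraries and at 704, 691 and 724 CPM in the 3 OxLDL-treated ones. All 3 treated libraries lay above all untreated ones, and the transcript rose (log2 change 0.87 ± 0.0384 SE, adjusted p = 4.83e-14). Its level in WT was 5330 ± 37.8 CPM untreated and 12508 ± 136 CPM with OxLDL (SD, n = 3), above every R150X library in both conditions. Of its MiT/TFE regulators, Tfeb and Tfec rose by 0.33 and 0.40 on the log2 scale, Mitf (log2 fold change 0.11) and Tfe3 (-0.078) did not pass the test, and Tfec lost its call when 1 of 2 libraries was left out (adjusted p = 0.0863 without untreated replicate 2 and 0.125 without OxLDL replicate 1).

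In OxLDL-treated R150X macrophages, inflammatory, interferon, antigen presentation, sterol synthesis and cell cycle transcripts were lower than in untreated ones. Lysosomal, lipid droplet and fatty acid oxidation transcripts were higher. Since batch was not given, a batch difference between treated and untreated libraries cannot be told apart from OxLDL. In all, 5983 of 15338 genes changed (39.0%), 2826 higher (18.4%) and 3157 lower (20.6%), by the quasi-likelihood test of edgeR with a threshold of 0.05 on the p adjusted across all genes. Large changes were mostly decreases. At least a 2-fold change was reached by 249 genes that rose (1.62% of those tested) and 912 that fell (5.95%), and a 4-fold change by 33 that rose and 335 that fell. The 3 libraries of each group did not overlap for 3484 genes in the upward direction (22.7%) and 3628 in the downward direction (23.7%). Without the library that stood apart, 5883 genes changed, 5272 of them shared with the full set. Each list below is read against these shares and against a median log2 fold change of 0.00386 over all genes tested. The lists were chosen with earlier results of these data known, so a larger share in a list is no independent evidence.

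**Figure D1:**
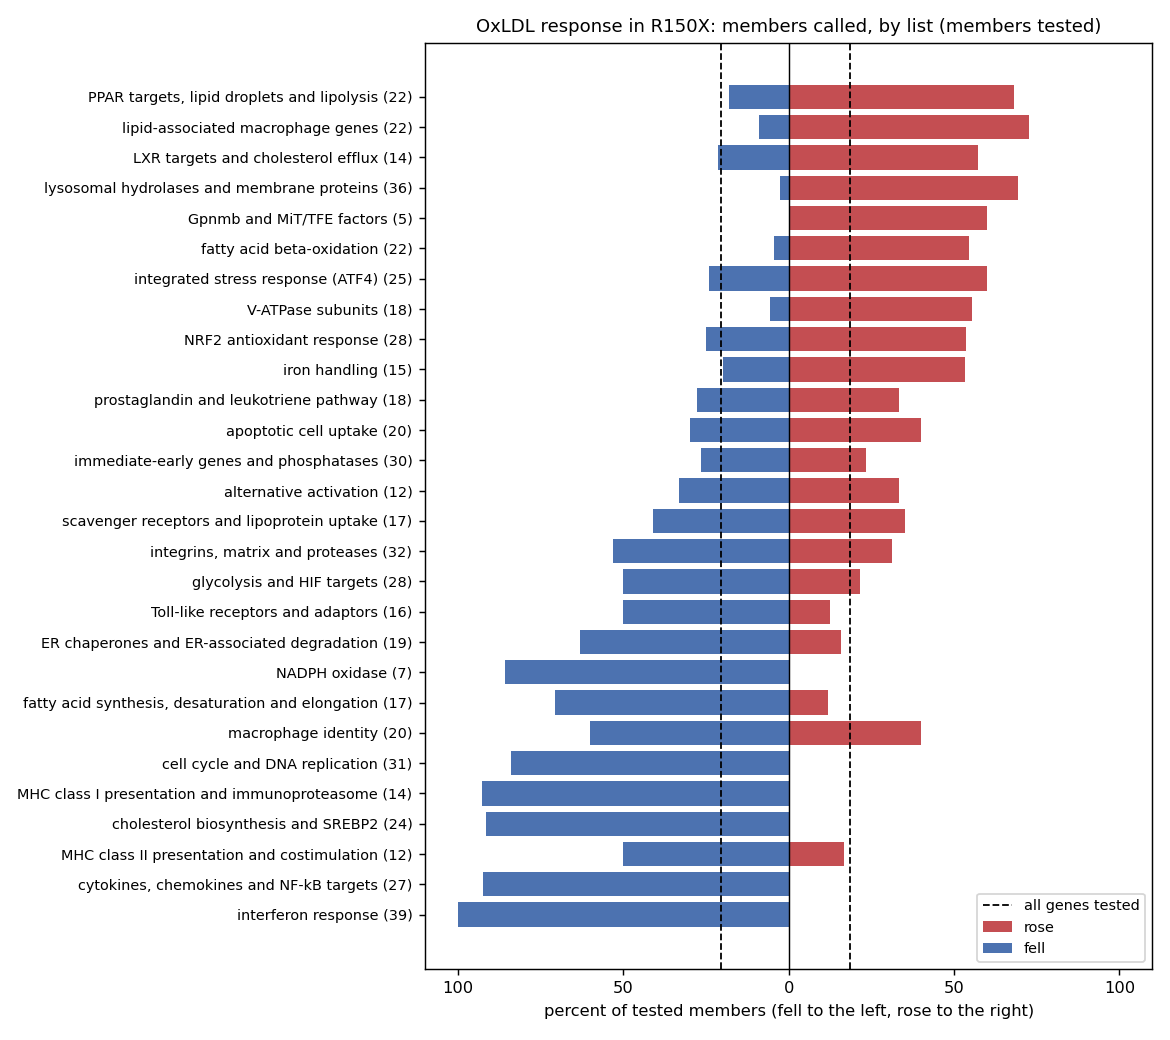
Share of tested members of 28 gene lists that rose (to the right, red) or fell (to the left, blue) with OxLDL in R150X macrophages, in percent, with the number of members tested in brackets and lists ordered by median log2 fold change. Dashed lines mark the shares over all genes tested, 18.4% higher and 20.6% lower; all 39 interferon response genes fell, and 16 of 22 lipid-associated macrophage genes rose.

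The largest falls among abundant genes were in Saa3, Acod1, Slc13a3 and Marco. Saa3, an acute-phase apolipoprotein made by activated macrophages (chr7:46711998-46715700, minus strand), stood at 2606, 1880 and 1981 CPM in untreated libraries and at 0.627, 1.03 and 1.28 CPM with OxLDL. The groups were separated by more than 3 orders of magnitude in every pairing of libraries (log2 change -11.09 ± 0.154 SE, adjusted p = 3.02e-22). Acod1, which makes itaconate, went from 631, 643 and 650 CPM to 0.753, 0.515 and 0.548 CPM (log2 change -10.04 ± 0.0916 SE, adjusted p = 1.89e-25). Marco, a scavenger receptor of bacteria and particles, went from 1276, 1034 and 1062 CPM to 2.2, 1.66 and 3.41 CPM (log2 change -8.86 ± 0.135 SE, adjusted p = 1.21e-21). Each lay above 500 CPM in every untreated library and under 5 CPM in every treated one. For genes with so few treated counts the SE, derived from the test statistic, may be below counting error. Slc13a3, a dicarboxylate transporter, fell by 9.19 on the log2 scale from 823 CPM. Other abundant genes with large changes also fell: Sod2, mitochondrial superoxide dismutase (-3.13), Itgal, the alpha chain of LFA-1 (-2.58), Hp, haptoglobin (-2.27), and Cd14, the co-receptor for bacterial lipopolysaccharide (-2.24). The 8 largest changes among genes of at least 500 CPM were all falls. At low levels, Tarm1, an activating receptor of myeloid cells, had 621 counts over the untreated libraries and 1 with OxLDL, a ratio of 617 (95% exact interval 110 to 24415), and Cd209f, a C-type lectin, 363 and 1, a ratio of 361 (64.3 to 14287); these intervals cover counting error only.

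All 39 interferon response genes fell in R150X macrophages, against 20.6% of all genes, with a median log2 fold change of -3.50. The list holds the transcription factors that carry the interferon signal, the antiviral effectors and the guanylate-binding and immunity-related GTPases. Ifit1, which binds foreign RNA, stood at 99.1, 103 and 94.4 CPM untreated and 1.57, 1.83 and 2.19 CPM with OxLDL (log2 change -5.72 ± 0.0977 SE, adjusted p = 5.05e-21). Gbp2, a guanylate-binding GTPase, stood at 210, 199 and 197 CPM and then at 8.72, 10.6 and 9.62 CPM (log2 change -4.38 ± 0.0707 SE, adjusted p = 2.16e-21). Oas3, a sensor of double-stranded RNA, stood at 94.5, 105 and 106 CPM and then at 5.21, 5.32 and 5.9 CPM (log2 change -4.21 ± 0.0791 SE, adjusted p = 2.18e-20). In each of these genes the groups lay far apart and replicates within a group were close. Cxcl9, a chemokine induced by interferon gamma, stood at 162, 165 and 161 CPM and, with OxLDL, at 0.376, 0.0572 and 0 CPM. Among the factors, Irf7 (log2 fold change -4.48), Stat2 (-2.12), Irf1 (-1.28) and Irf9 (-1.05) fell, and the smallest falls of the list were in Irf9, Irf1 and the RNA sensor Ifih1 (-1.48). Ifitm3 and Bst2, the most abundant members, went from 375, 306 and 329 to 84.3, 91.3 and 94.8 CPM and from 319, 254 and 256 to 73.6, 71.4 and 77.4 CPM. Members of the Ifit, Oas, Gbp and immunity-related GTPase families resemble each other in sequence, and reads shared between copies make single members uncertain.

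**Figure D2:**
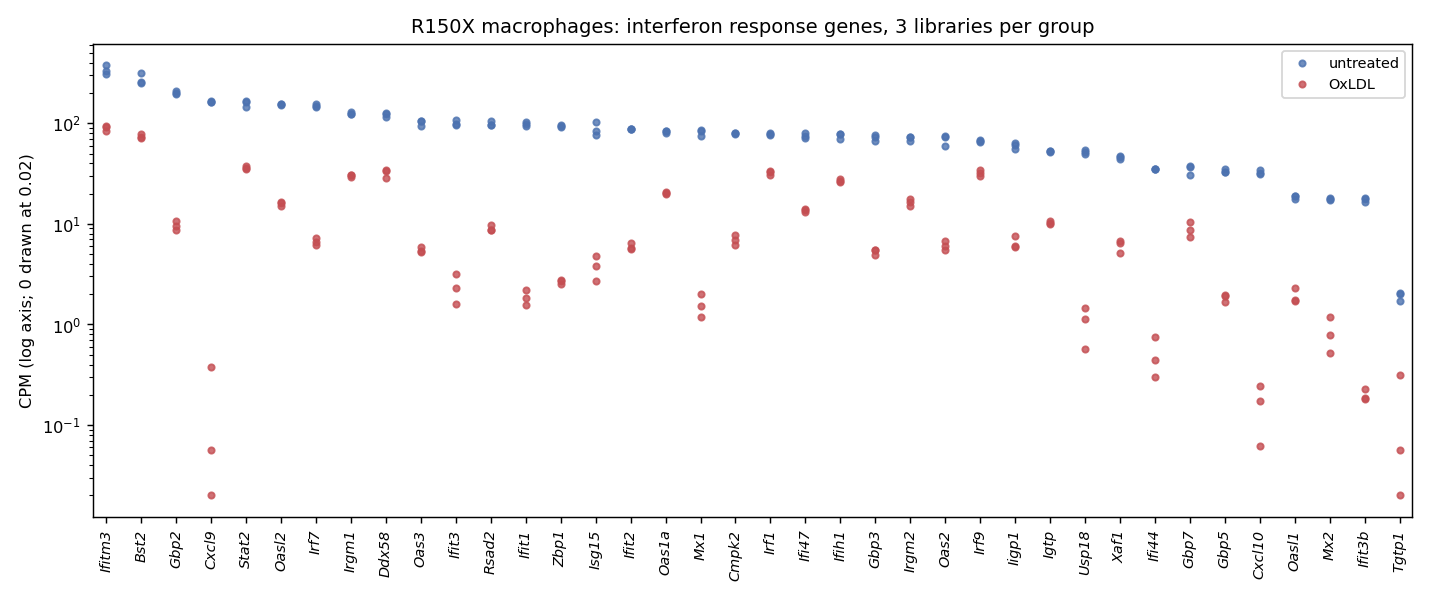
CPM on a log axis of interferon response genes (1 of the 39 is not drawn) in each untreated (blue) and OxLDL-treated (red) R150X library, ordered by untreated mean, with values of 0 drawn at 0.02. The 3 treated points lie below the 3 untreated points for every gene drawn, by the largest margin for Cxcl9.

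Promoters of the interferon response genes were read for the interferon-stimulated response element (ISRE) in the 250 bases before the RefSeq start (GRCm38.p6). It was searched on both strands as a pair of GAAA boxes with any 2 bases between them. A promoter was given for 32 of the 39 members, and 18 of those (56.2%) held a match, against 362 of 10862 promoters of all tested genes (3.33%). The list was made of known interferon response genes, so a larger share follows from that choice and is no result of these data. A match describes the letters in this window and not a bound site. Windows of 60 bases of 4 members, chosen to show the match, are printed 5′ to 3′ along the gene's own strand with the match in capitals. They cover chr3:142620579-142620638 (plus strand) for Gbp2, chr19:34640760-34640819 (plus strand) for Ifit1 (2 matches), chr5:120777700-120777759 (minus strand) for Oas3 and chr5:92349068-92349127 (minus strand) for Cxcl10.
Gbp2: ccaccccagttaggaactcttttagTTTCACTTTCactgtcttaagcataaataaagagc
Ifit1: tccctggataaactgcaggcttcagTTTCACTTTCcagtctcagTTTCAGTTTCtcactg
Oas3: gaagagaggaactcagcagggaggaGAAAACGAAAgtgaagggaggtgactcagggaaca
Cxcl10: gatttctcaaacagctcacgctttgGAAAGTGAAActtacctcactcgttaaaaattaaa
The match in Gbp2 lay 59 to 50 bases before the start and that in Oas3, in the other orientation, 75 to 66 bases before it.

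Of 27 cytokine, chemokine and NF-kB target genes tested, 25 fell and none rose (median -2.96). Il1b, the inflammasome cytokine (chr2:129364570-129371139, minus strand), stood at 255, 239 and 240 CPM in untreated R150X libraries and at 1.69, 0.801 and 0.791 CPM with OxLDL (log2 change -7.81 ± 0.114 SE, adjusted p = 6.21e-22). Tnf, the founding inflammatory cytokine of its family, stood at 111, 106 and 104 CPM and then at 9.91, 8.18 and 9.92 CPM (log2 change -3.52 ± 0.0886 SE, adjusted p = 3.48e-18). Ccl5, a chemokine for T cells and monocytes, stood at 257, 244 and 240 CPM and then at 1.63, 0.687 and 0.67 CPM (log2 change -7.96 ± 0.135 SE, adjusted p = 4.81e-21). No treated library reached any untreated one in these 3 genes. Il12b, a subunit of interleukins 12 and 23, had 97 counts over the untreated libraries and 0 with OxLDL, at least 32.1-fold lower against a floor of 3 counts over the group, and the list's median is the same with it at that bound. The chemokines Cxcl10 (-7.59), Cxcl3 (-7.96), Ccl4 (-2.96) and Ccl2 (-2.04) fell, as did Ptgs2, the inducible prostaglandin synthase (-4.35), and Nos2, the inducible nitric oxide synthase (-3.27). Regulators of NF-kB, themselves NF-kB targets, fell as well: Nfkbiz by 3.04, Nfkbia by 2.01 and Tnfaip3 by 0.54 on the log2 scale. The members that did not pass were Il1rn, the interleukin 1 receptor antagonist (133 and 138 CPM), and Il18 (5.87 and 5.32 CPM).

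The kappaB motif was searched on either strand in the same 250 bases. It was found in 9 of the 18 members with a RefSeq promoter (50%), against 596 of 10862 promoters (5.49%). The list was made to hold known NF-kB targets, so a larger share follows in part from that choice and is no result of these data. Windows of 3 members that fell are printed in the same way, chr5:92349014-92349073 (minus strand) for Cxcl10, chr12:55492648-55492707 (minus strand) for Nfkbia and chr5:90786003-90786062 (plus strand) for Cxcl3, the last with 2 overlapping matches.
Cxcl10: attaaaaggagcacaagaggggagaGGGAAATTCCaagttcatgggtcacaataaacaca
Nfkbia: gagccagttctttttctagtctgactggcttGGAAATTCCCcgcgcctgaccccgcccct
Cxcl3: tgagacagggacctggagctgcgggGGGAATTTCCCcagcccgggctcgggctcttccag
The Cxcl10 promoter held both elements, with the ISRE 213 to 204 bases and this kappaB match 159 to 150 bases before the start.

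Receptors upstream of these cytokines were split. Of 16 Toll-like receptors and adaptors, 8 fell and 2 rose (median -0.23). Tlr2 (-1.44) and Tlr1 (-1.62), which pair to sense bacterial lipopeptides, fell with Cd14 and the adaptor Myd88 (-0.58). Tlr4, the lipopolysaccharide receptor, did not pass, at 56.1, 64.8 and 67.6 CPM untreated and 64.6, 63 and 57 CPM with OxLDL, where the libraries overlapped. Tlr13, a sensor of bacterial ribosomal RNA, rose by 0.42 and Tlr7 by 0.16, both genes on chromosome X. Only 1 of these rises held with library size alone, without the filter, in the R150X libraries alone, and without OxLDL replicate 1 or 2 or untreated replicate 3. Immediate-early genes and their phosphatases showed no common direction: 7 of 30 rose, 8 fell and 15 did not pass. Dusp2 (-1.57), a phosphatase of MAP kinases, and Zfp36 (-0.62), which destabilises cytokine mRNAs, fell, and Dusp4 (0.86) and Nr4a1 (0.61) rose. Jun (0.054) did not pass.

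Neutrophil granule transcripts fell beside these inflammatory lists. Of 10 neutrophil markers tested, 6 fell, their summed level going from between 193 and 210 CPM to between 40.7 and 42.6 CPM, with S100a9 at 53.9, 49.7 and 52.6 CPM untreated and 9.97, 9.67 and 7.43 CPM with OxLDL. The surface marker Ly6g stood at 0 to 5 counts a library throughout. In bulk RNA, fewer cells of a type and less RNA per cell cannot be told apart, and the part of these cells in the inflammatory change was not tested.

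Most antigen presentation genes fell. Cd74, the invariant chain that guides class II molecules, stood at 356, 318 and 306 CPM and then at 75, 83.6 and 75.5 CPM (log2 change -2.06 ± 0.0623 SE, adjusted p = 8.01e-17), with no overlap. The class II chains H2-Aa (-1.74), H2-Eb1 (-1.71) and H2-Ab1 (-1.38) fell with Ciita, their master regulator (-1.29), and Cd40 (-2.20). In the same list of 12 the costimulators Cd86 (0.67) and Cd80 (0.46) rose, and the peptide exchange genes H2-DMa (-0.12) and H2-DMb1 (0.11) did not pass, leaving 6 lower, 2 higher and a median of -1.33. Of 14 class I and immunoproteasome genes, 13 fell (median -0.95). Tap1, the peptide transporter, went from 134, 130 and 135 CPM to 52.3, 46.6 and 49.7 CPM (log2 change -1.43 ± 0.0577 SE, adjusted p = 1.17e-14), and B2m, the class I light chain, from 2257, 2133 and 2010 CPM to 1158, 1103 and 1077 CPM (log2 change -0.94 ± 0.0505 SE, adjusted p = 1.58e-12). H2-K1 fell by 0.89 on the log2 scale, whereas H2-D1 (2621 and 2538 CPM) did not pass; the H2 genes are similar in sequence and their split is uncertain. Dendritic cells are rich in class II, and 4 of 5 dendritic cell markers tested, of 9 listed, fell too (median -0.67), their summed level going from between 104 and 110 CPM to between 87.7 and 93.6 CPM. Most of that sum was Tcf4 (-0.23), and Zbtb46 (-0.67) fell with it. The count of members that fell was 2 with a stricter filter on low counts and without OxLDL replicate 1 or 2 or untreated replicate 1. Flt3, Siglech, Ccr7 and Cd209a stood at 0 to 9 counts a library. The part of dendritic cells in the fall of antigen presentation genes was not tested.

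Of 24 genes of cholesterol synthesis and SREBP2 control, 22 fell and none rose (median -1.28). Insig1, which retains SREBP proteins in the endoplasmic reticulum (chr5:28071363-28078662, plus strand), stood at 94.9, 93.8 and 97 CPM in untreated and 24.3, 26.3 and 28 CPM in treated R150X libraries (log2 change -1.86 ± 0.0648 SE, adjusted p = 9.6e-16). Cyp51, the sterol demethylase, stood at 78.9, 79.8 and 77.9 CPM and then at 19.8, 18 and 19.6 CPM (log2 change -2.04 ± 0.0634 SE, adjusted p = 1.29e-16). The groups did not overlap for either gene. Other enzymes along the pathway fell from its early step Hmgcs1 (-1.17) through Idi1 (-2.23) and Fdft1 (-1.98) to Sqle (-1.68), all as log2 fold changes, with the cholesterol carrier Stard4 (-1.93) and Srebf2 itself (-0.99). Ebp (-0.075) and Tm7sf2 (-0.31) did not pass. The sterol regulatory element, searched as TCACNCCAC, was in 1 of 17 members with a promoter (5.88%), that of Hmgcs1, and in 133 of 10862 promoters (1.22%). The list was chosen for SREBP2 control, so a larger share would follow in part from that choice. The Hmgcs1 element is shown for chr13:119690188-119690247 (plus strand), with the match in capitals 137 to 129 bases before the start.
Hmgcs1: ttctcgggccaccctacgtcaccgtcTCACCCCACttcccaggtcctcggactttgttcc

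Fatty acid synthesis moved the same way at a smaller size. Of 17 genes, 12 fell and 2 rose (median -0.45). Fasn, fatty acid synthase, went from 181, 227 and 247 CPM to 102, 99 and 101 CPM (log2 change -1.12 ± 0.077 SE, adjusted p = 1.15e-10), and the desaturases Fads2 (-2.19) and Scd2 (-1.07) fell with Acss2 (-1.59), which makes acetyl-CoA from acetate. Scd1 rose (0.32), while Fads1 (-0.052) did not pass. The 2 genes that rose were 1 when untreated replicate 1 or 2 or OxLDL replicate 1 or 2 was left out.

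**Figure D3:**
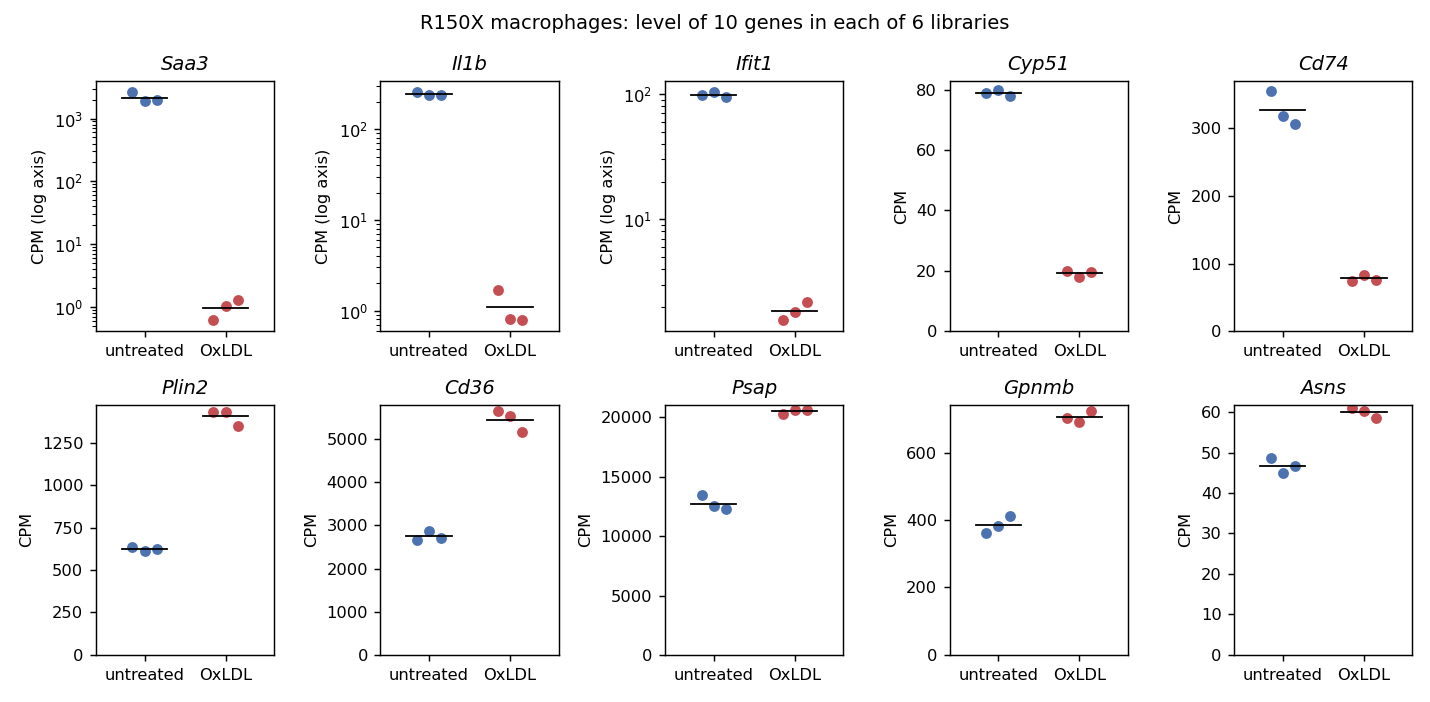
CPM of 10 genes in each untreated (blue) and OxLDL-treated (red) R150X library, with bars at the group mean; Saa3, Il1b and Ifit1 have log axes and the others start at 0. The groups do not overlap for any of the 10; the first 5 are lower with OxLDL and the others higher.

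Lipid storage genes rose. Of 22 PPAR target, lipid droplet and lipolysis genes, 15 rose and 4 fell (median 0.53). Plin2, the main droplet coat protein of macrophages (chr4:86648386-86670060, minus strand), stood at 634, 614 and 624 CPM untreated and 1432, 1433 and 1349 CPM with OxLDL (log2 change 1.17 ± 0.0405 SE, adjusted p = 8.57e-16). Angptl4, an inhibitor of lipoprotein lipase and a PPAR target, stood at 19.1, 18 and 16.4 CPM and then at 56.4, 56.7 and 62.8 CPM (log2 change 1.72 ± 0.0789 SE, adjusted p = 1.02e-13). All treated libraries lay above all untreated ones for both. Mgll, monoacylglycerol lipase (1.22), Lpl, lipoprotein lipase (0.56), Fabp4 (0.65) and Fabp5 (0.72), fatty acid carriers, and Soat1 (0.58), which esterifies cholesterol, rose too. G0s2, an inhibitor of the triglyceride lipase, rose by 2.31 from a low level, 1.33, 1.24 and 0.659 CPM, to 5.02, 4.46 and 6.51 CPM. Acsl1, an acyl-CoA synthetase, fell (log2 change -1.66 ± 0.0532 SE, adjusted p = 2.3e-16), as did Dgat2 (-0.65) and Pdk4 (-0.38). Pparg itself did not pass, at 53, 45.8 and 50.1 CPM untreated and 47.2, 49.8 and 50.7 CPM with OxLDL, and its libraries overlapped.

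Genes best known from adipocytes had the largest rises among genes of at least 5 CPM whose groups did not overlap. Plin1, the droplet coat of fat cells, stood at 0.267, 0.507 and 0.549 CPM and then at 10.4, 12.2 and 12.6 CPM (log2 change 4.68 ± 0.226 SE, adjusted p = 2.4e-13). Car3, a carbonic anhydrase of fat and muscle, stood at 0.733, 0.789 and 0.769 CPM and then at 12.6, 13.2 and 13.5 CPM (log2 change 4.08 ± 0.239 SE, adjusted p = 6.7e-12), and Adipoq, adiponectin, at 2.07, 2.25 and 2.58 CPM and then at 14.9, 15 and 17.5 CPM (log2 change 2.77 ± 0.171 SE, adjusted p = 1.8e-11). The whole adipocyte list of 9 summed to between 24.6 and 26 CPM untreated and between 56.3 and 62.8 CPM with OxLDL; 4 members were tested, 3 rose and Lipe fell (-0.30, with an adjusted p = 0.0821 without OxLDL replicate 2). Of the members under the filter, Lep had 0 counts in all 6 libraries, and Cfd 0 to 5 and Adig 0 to 4 counts a library. Most of the untreated sum was Lipe. The part of fat cells in these genes was not tested. Other genes with high folds were Agt, angiotensinogen (6.47, 6.43 and 8.46 CPM, then 43, 39.6 and 35.2 CPM), the integrin chain Itgad (2.34), the thioesterase Acot1 (2.11), the lysosomal channel Mcoln3 (2.07), Epb41l4b (2.15) and Card14 (2.14).

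Uptake receptors went in different directions. Of 17 scavenger and lipoprotein receptors 6 rose and 7 fell (median -0.068). Cd36, a principal receptor for OxLDL, rose from 2667, 2874 and 2698 CPM to 5642, 5541 and 5151 CPM (log2 change 0.99 ± 0.0465 SE, adjusted p = 1.56e-13), with no overlap. Cd68 (0.57), Lrp1 (0.70) and Scarb2 (0.46) rose. Besides Marco, Olr1, the lectin-like OxLDL receptor, fell (-4.44) from a low level of 3.4, 5.07 and 5 CPM, and Cxcl16, which also binds OxLDL, fell by 1.62 on the log2 scale. Msr1, the class A scavenger receptor, fell by 0.13, and Scarb1 (-0.068) and Stab1 (-0.064) did not pass. Among LXR targets and efflux genes, 8 of 14 rose and 3 fell (median 0.36). Abca1 and Abcg1, which export cholesterol, went from 498, 642 and 642 to 840, 826 and 819 CPM and from 316, 331 and 342 to 447, 456 and 468 CPM (log2 fold changes 0.48 and 0.47, adjusted p = 4.57e-06 and 2.64e-08), and the groups did not overlap. Mylip, a ubiquitin ligase, rose by 0.74 and Apoe by 0.44. Nr1h3, which encodes LXR alpha, fell by 0.72 and Srebf1 by 0.46 on the log2 scale.

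Fatty acid oxidation genes rose by small amounts: 12 of 22 rose and 1 fell (median 0.26). Cpt1a, the gate of mitochondrial fatty acid import, went from 91.3, 104 and 111 CPM to 189, 187 and 181 CPM (log2 change 0.86 ± 0.0597 SE, adjusted p = 1.22e-10). Acaa2 (0.48), Hadh (0.35) and Hadha (0.32), enzymes of the mitochondrial cycle, rose, and the peroxisomal thiolase Acaa1a fell (-0.54). Messenger RNAs encoded in mitochondria moved with them: 9 of 12 rose, none fell, and their sum went from between 12804 and 13652 CPM to between 16621 and 18902 CPM. Their part in the result was not tested.

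Lysosomal genes rose. Of 36 hydrolases and membrane proteins, 25 rose and 1, Ctsz (-0.14), fell (median 0.35). Psap, the precursor of the saposins (chr10:60277627-60302597, plus strand), stood at 13423, 12530 and 12248 CPM untreated and 20279, 20576 and 20637 CPM with OxLDL (log2 change 0.69 ± 0.0303 SE, adjusted p = 5.36e-14). Lipa, the acid lipase that frees cholesterol from lipoprotein esters, stood at 1454, 1612 and 1590 CPM and then at 2766, 2794 and 2642 CPM (log2 change 0.82 ± 0.0428 SE, adjusted p = 1.03e-12). Npc1, which exports that cholesterol, stood at 236, 275 and 289 CPM and then at 479, 460 and 478 CPM (log2 change 0.82 ± 0.0573 SE, adjusted p = 1.34e-10). Treated libraries were above untreated ones in all 3. The proteases Ctsd (0.72) and Ctsb (0.50), the glycosidase Naglu (0.82) and Lamp1 (0.46) rose, whereas Ctss (-0.095), Npc2 (-0.078) and Grn (0.049) did not pass. Of 18 subunits of the V-ATPase, the proton pump of the lysosome, 10 rose and 1 fell (median 0.17), led by Atp6v0a1 (0.92) and Atp6v0d2 (0.66). Ctsz kept its fall in neither the fit of the 6 R150X libraries alone nor the fits without untreated replicate 1 or without OxLDL replicate 1 or 2, and 2 members fell with library size alone, without the filter or without untreated replicate 2. The CLEAR element bound by MiT/TFE factors, searched as TCACGTGA, was in 4 of 28 lysosomal members with a promoter (14.3%) and in 185 of 10862 promoters (1.70%). Since MiT/TFE factors regulate lysosomal genes, a larger share follows in part from how the list was made. The element is shown in capitals for chr7:142387893-142387952 (minus strand) of Ctsd and chr2:164833713-164833772 (plus strand) of Ctsa, 99 to 92 and 13 to 6 bases before their starts.
Ctsd: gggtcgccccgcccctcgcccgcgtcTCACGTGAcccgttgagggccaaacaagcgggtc
Ctsa: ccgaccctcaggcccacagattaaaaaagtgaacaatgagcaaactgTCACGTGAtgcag

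The lipid-associated macrophage list, genes that mark lipid-laden macrophages in fat tissue and plaques, largely rose: 16 of 22 members, with 2 lower and a median of 0.40. It shares Plin2, Lpl, Fabp5, Ctsb, Ctsd, Cd63, Apoe and Gpnmb with the lists above. Trem2, the lipid receptor that defines these cells, stood at 714, 589 and 626 CPM untreated and 974, 1024 and 1084 CPM with OxLDL (log2 change 0.68 ± 0.0573 SE, adjusted p = 3.46e-09). Lgals3, galectin 3, stood at 2714, 2040 and 2167 CPM and then at 3276, 3508 and 3946 CPM (log2 change 0.63 ± 0.0759 SE, adjusted p = 7.03e-07). The groups did not overlap for either. Syngr1 (0.88) and the elastase Mmp12 (0.51) rose, with smaller rises in the Trem2 adaptor Tyrobp (0.23), Itgax (0.22) and Cd9 (0.18). Spp1, osteopontin, did not pass, at 6296, 5945 and 6002 CPM and 6549, 6376 and 5941 CPM. Vim (0.085) did not pass either, nor did Clec7a (0.066), whose count is uncertain since it is annotated as a polymorphic pseudogene. Cst7, an inhibitor of cathepsins, fell from 4.47, 4.74 and 5.38 CPM to 0.439, 0.172 and 0.913 CPM, and Csf1 fell by 0.23 on the log2 scale.

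Macrophage identity genes all changed, 12 of 20 lower and 8 higher (median -0.46). Adgre1, which encodes the F4/80 antigen, stood at 2623, 2798 and 2867 CPM untreated and 784, 775 and 748 CPM with OxLDL (log2 change -1.85 ± 0.0403 SE, adjusted p = 2.94e-19), with no overlap. The monocyte genes Ly6c2 and Cx3cr1 fell by 4.28 and 3.15 on the log2 scale, and Ccr2 (-1.03) and the Fc receptor Fcgr1 (-1.54) fell as well. The receptor for CSF1, Csf1r, fell by 0.45 and the lineage factor Spi1 by 0.50. Cd68, Mertk (0.48) and Cebpa (0.62) rose, as did Lyz2 (0.12), which lost its call without OxLDL replicate 1 or 2 or untreated replicate 3. Of 7 subunits of the NADPH oxidase, the source of the oxidative burst, 6 fell and none rose (median -0.44), with Cybb, its catalytic subunit, at 1745, 2041 and 2024 CPM and then 979, 964 and 942 CPM (log2 change -1.01 ± 0.0509 SE, adjusted p = 5.13e-13), and Rac2 at -1.13. Rac1 lost its call in the R150X libraries alone and without OxLDL replicate 2 or 3 or untreated replicate 1 or 2, and 1 subunit rose without untreated replicate 1. Apoptotic cell uptake genes were split, 8 of 20 higher and 6 lower: the bridging protein Gas6 (0.85), Itgb3 (1.12) and Lrp1 rose, and the complement genes C1qa (-0.79) and C1qb (-0.26) fell. Alternative activation genes showed 4 higher and 4 lower of 12, with the mannose receptor Mrc1 rising (439, 471 and 471 CPM, then 775, 773 and 751 CPM) and Chil3 (-2.17) and Il4ra (-0.90) falling. Reads of Chil3 may be shared with its close paralogs.

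Of 28 NRF2 targets, 15 rose and 7 fell (median 0.15). Gstm1, a glutathione transferase, went from 112, 108 and 108 CPM to 297, 279 and 304 CPM (log2 change 1.42 ± 0.049 SE, adjusted p = 8.23e-16), Gclm, a subunit of the enzyme limiting glutathione synthesis, rose by 0.67 and Srxn1 by 0.54, while Gsr, glutathione reductase, fell by 0.43 and Nfe2l2, which encodes NRF2, by 0.28. Of 25 genes of the integrated stress response, 15 rose and 6 fell (median 0.19). Ddit3 of this list and Aldoa of the glycolysis list below were not tested, since neither symbol matched a single gene identifier. Asns, asparagine synthetase and a textbook ATF4 target, stood at 48.7, 45 and 46.6 CPM untreated and 61, 60.2 and 58.6 CPM with OxLDL (log2 change 0.36 ± 0.057 SE, adjusted p = 3.01e-05), with no overlap. Other small rises were in Trib3 (0.43), the serine synthesis enzymes Psph (0.53) and Psat1 (0.27), the tRNA synthetase Sars (0.39) and Atf4 (0.13), whereas the amino acid transporter Slc7a5 (-1.16), Ddit4 (-0.99) and Nupr1 (-1.36) fell. Of 19 endoplasmic reticulum chaperones and degradation genes, 12 fell and 3 rose (median -0.30), with Hspa5, the main chaperone, at -0.52; without untreated replicate 1, 5 rose. Of 28 glycolysis and HIF target genes, 14 fell and 6 rose (median -0.21), led by Ndrg1 (-1.74) and Pfkfb3 (-0.70), with Hk2 (-0.56) and Ldha (-0.40). The 6 that rose were 2 or 3 with library size alone, without the filter, in the 6 libraries alone, or without untreated replicate 2, untreated replicate 3 or OxLDL replicate 2. Cell cycle genes fell, 26 of 31 with none higher (median -0.56): Mcm3 of the replication helicase (-0.61), Top2a (-0.66) and Rrm1 (-0.68) fell, and Pcna (0.076) did not pass but rose without untreated replicate 1 (adjusted p = 0.0263).

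Adhesion and matrix genes fell more often than they rose, 17 lower and 10 higher of 32 (median -0.16). Mmp9, a gelatinase, stood at 265, 279 and 291 CPM untreated and 36.1, 36.3 and 36.8 CPM with OxLDL (log2 change -2.93 ± 0.0578 SE, adjusted p = 5.39e-20), with no overlap. Timp3 (-2.74) and Timp1 (-1.63), inhibitors of metalloproteinases, Mmp14 (-1.09) and Thbs1 (-0.84) fell, and Itgb3 and the urokinase receptor Plaur (0.79) rose. Markers of stroma moved with them. Of 12 fibroblast and stromal markers 8 fell and none rose, their summed level going from between 10117 and 10168 CPM to between 5909 and 6261 CPM, with Col1a1 at 3349, 3478 and 3470 CPM and then 1768, 1843 and 1884 CPM, and Postn at -1.77. Of 7 endothelial markers 6 fell, and none of the 12 stromal markers was at 0. Their part in the matrix result was not tested. Prostaglandin and iron genes were mixed. Of 18 prostaglandin and leukotriene genes 6 rose and 5 fell: the prostacyclin receptor Ptgir (1.87) and the prostaglandin E receptor Ptger2 (1.43) rose, and Ptgs2 and Ptges (-1.40), which make prostaglandin E, fell. Of 15 iron genes 8 rose and 3 fell: Slc40a1, the iron exporter ferroportin, went from 46.7, 48.3 and 45.8 CPM to 141, 136 and 138 CPM (log2 change 1.56 ± 0.0522 SE, adjusted p = 4.84e-16), Tfrc rose by 0.79, and Lcn2, a siderophore-binding acute-phase protein, fell by 4.73 on the log2 scale.

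The response of R150X cells was then set beside that of WT cells, whose 6 libraries it does not share. In WT, 7025 genes changed (45.8%), 3481 higher (22.7%) and 3544 lower (23.1%). Direction was shared by 2038 genes that rose and 2362 that fell in both genotypes, 73.5% of the R150X calls and 62.6% of the WT calls, whereas 44 rose in R150X and fell in WT and 56 did the opposite. Across genes, which are not independent replicates, the log2 fold changes of the genotypes had a Pearson correlation of 0.85. The interaction, the R150X response minus the WT response, was called for 1276 genes (8.32%), 480 higher (3.13%) and 796 lower (5.19%) in R150X. Scaling moved this split: with library size alone as the scale, which shifted the median WT change of all genes from 0.0136 to -0.0999, 878 were higher and 442 lower. Of 1483 genes called in R150X and not in WT, 182 were called in the interaction, and of 2525 called in WT and not in R150X, 385 were. Among interaction genes that rose in both genotypes, the rise was smaller in R150X for 257 and larger for 23. For those that fell in both, the fall was smaller for 171 and larger for 153.

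**Figure D4:**
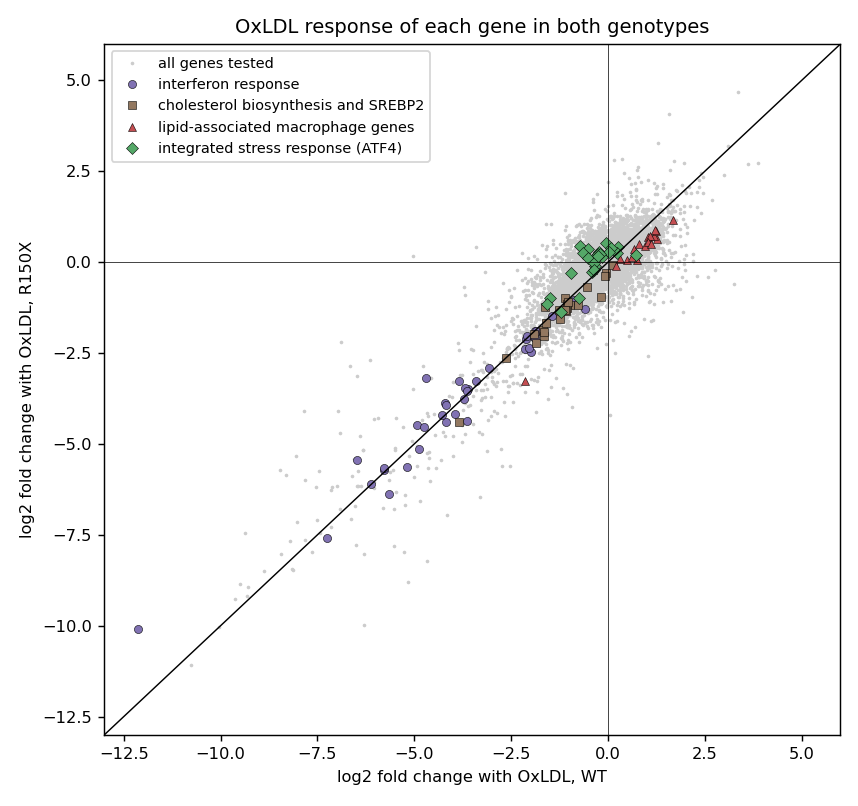
Log2 fold change with OxLDL in R150X (vertical axis) against WT (horizontal axis) for 15338 genes, with the line of equality and 4 lists in colour; fitted values of genes nearly absent in a group depend on the prior count. Interferon response genes lie along the line (median difference -0.016), and cholesterol genes lie near it with a median difference of -0.21. Most lipid-associated macrophage genes lie below the line and most ATF4 genes above it.

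The interferon and cholesterol lists fell in both genotypes. All 39 interferon genes fell in WT too (median -3.68), with 3 higher (1 without R150X OxLDL replicate 1 or WT OxLDL replicate 3) and 3 lower in the interaction, among them Irf1 (difference -0.68), Gbp2 (-0.75) and Iigp1 (1.49). Of 24 cholesterol genes 20 fell in WT, and the median difference was -0.21 (-0.12 with library size alone). By the interaction test 4 were lower in R150X, with Cyp51 at -0.39 (WT log2 fold change -1.66). That count was 1 without R150X OxLDL replicate 1 or WT untreated replicate 2, and it was 2 with library size alone, with the replicate block, and without R150X OxLDL replicate 2, WT untreated replicate 1 or WT OxLDL replicate 1 or 2. Il1b fell further in R150X than in WT, where it stood at 119, 112 and 117 CPM and then 2.76, 2.45 and 2.29 CPM (difference -2.28, adjusted p = 2.09e-06). Cd74 and the class II chains also differed: Cd74 stood at 149, 139 and 146 CPM in untreated WT and 91.5, 86.8 and 94.4 CPM with OxLDL (difference -1.39, adjusted p = 2.03e-09), against 326 and 78.1 CPM in R150X. H2-Eb1 (-1.45), H2-Aa (-1.33) and H2-Ab1 (-1.19) differed in the same direction. Mmp9 showed the same order, with WT at 118 and 38 CPM against 278 and 36.4 CPM in R150X (difference -1.30, adjusted p = 2.03e-09).

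Most lipid-associated macrophage genes had a lower response in R150X. The interaction was lower for 20 of 22 members and higher for none (median difference -0.46), against 5.19% lower over all genes. The list was chosen with earlier results of these data known, so that contrast is no independent evidence. With library size alone, 17 were lower and 1 higher. Gpnmb, the mutated gene, is 1 of the 20 (difference -0.36). Plin2 rose by 1.68 in WT and 1.17 in R150X (difference -0.51, adjusted p = 6.44e-06), Lpl by 1.04 and 0.56 (difference -0.48), and Trem2 by 1.03 and 0.68 (difference -0.36). Spp1 stood at 8308, 8414 and 8269 CPM in untreated and 12482, 11740 and 11117 CPM in treated WT libraries (difference -0.45). Untreated R150X cells held more of most of these transcripts: 18 of 22 had a higher untreated mean in R150X than in WT, against 51% of all genes, and 14 of 22 a higher mean with OxLDL, against 49.9% of all genes. Plin2, for example, was at 395 CPM in untreated WT against 624 CPM, and at 1262 against 1405 CPM with OxLDL. The untreated libraries enter both the level and the response, so the counts are not independent of the interaction, and 719 of all 796 genes with a lower interaction had a higher untreated mean in R150X. Lower interactions were also called for 15 of 36 lysosomal genes (9 with library size alone), such as Psap (-0.42). Ctsb, Ctsd and Cd63 are counted in both of these lists. The same held for 16 of 28 NRF2 targets (13 with library size alone), such as Prdx1 (-0.71), and for Cd36 (-0.66). Of 20 macrophage identity genes, 12 were lower (8 with library size alone), such as Csf1r (-0.50).

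ATF4 targets went against this order. The interaction was higher in R150X for 16 of 25 and lower for 1, Atf3 (-0.53), with a median difference of 0.41, against 3.13% higher over all genes. This list too was chosen with earlier results known, so the contrast is no independent evidence. In WT 19 of the 25 fell and 3 rose (median -0.33), whereas in R150X 15 rose and 6 fell. Asns went from 61.2, 63.8 and 62.2 CPM to 46.1, 43.1 and 41.2 CPM in WT (log2 fold change -0.52), a difference of 0.88 (adjusted p = 6.07e-07). Trib3 had a log2 fold change of -0.72 in WT and 0.43 in R150X (difference 1.15, adjusted p = 7e-06). Aars, an alanyl-tRNA synthetase, had a difference of 0.61 and Phgdh, which opens serine synthesis, of 0.90. Here the untreated mean was lower in R150X for 17 of 25 and higher for 8, and with OxLDL it was higher for 20, against 49.9% of all genes. These counts are not independent of the interaction either: of all 480 genes with a higher interaction, 416 had a lower untreated mean in R150X. The count of higher interactions was 13 to 16 when any library was left out and 17 with library size alone.

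**Figure D5:**
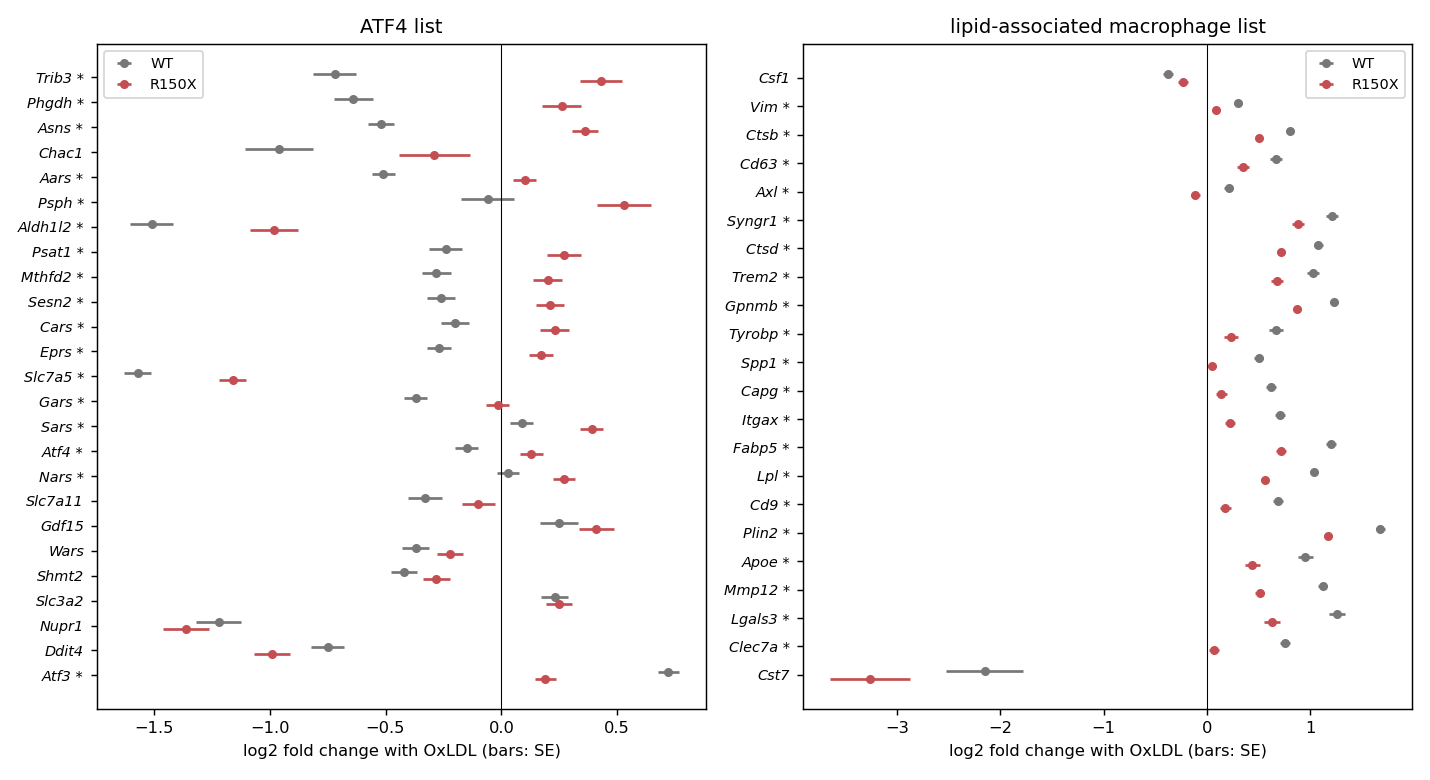
Log2 fold change with OxLDL and its SE in WT (grey) and R150X (red) for 25 ATF4 genes (left) and 22 lipid-associated macrophage genes (right), ordered by the difference, with a star where the interaction passed. For 16 ATF4 genes the R150X point lies to the right of WT and passed, and for 20 lipid-associated genes it lies to the left and passed.

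Stromal collagen transcripts fell less in R150X than in WT, with 7 of 12 stromal markers higher in the interaction, such as Col1a1 (0.43), and their untreated sum lay between 15379 and 15551 CPM in WT. The 1 stromal marker called lower lost its call with DESeq2, other scalings, the replicate block, and without any library other than R150X untreated replicate 3 or WT untreated replicate 1. Of 10 neutrophil markers tested, 5 had a lower response in R150X (median difference -0.74), 3 without R150X OxLDL replicate 3, and none had a higher untreated mean in R150X. Their sum lay between 424 and 449 CPM in untreated and between 128 and 147 CPM in treated WT libraries. Of 4 adipocyte markers tested, 2 rose and 1 fell in WT. None was called in the interaction, against 1 with DESeq2 and up to 2 when a library was left out. The adipocyte list summed to between 18.9 and 20 CPM in untreated and between 16.8 and 20.2 CPM in treated WT libraries. Its median log2 fold change over the members tested was 1.64 in WT and 3.43 in R150X. Of 5 erythroid and megakaryocyte markers tested, 4 had a lower response in R150X. Ppbp, a platelet chemokine, stood at 1.78, 2 and 1.61 CPM in untreated and 17.5, 15.6 and 18.7 CPM in treated WT libraries, and at 8.73, 7.27 and 7.31 and 4.83, 5.49 and 4.99 CPM in R150X (difference -3.86, adjusted p = 1.47e-10), and Itga2b followed (-2.22). Among other genes with large differences of response, Adamts15 (1.58), Epb41l4b (1.56), G0s2 (1.78), Sez6l2 (1.63) and the V-ATPase subunit gene Atp6v0e2 (1.75) had responses higher in R150X, and Rps27a (-1.93), a ribosomal protein gene with processed copies whose reads may be shared, and Mcemp1 (-1.54), a membrane protein of mast cells and other myeloid cells, had lower ones. Tarm1 passed as well, with 1 count in treated R150X libraries, so its fitted difference is no measure of size. Atp6v0e2 lost its call without WT OxLDL replicate 1 or 2 or WT untreated replicate 2 or 3. The part of stromal, neutrophil, adipocyte and platelet transcripts in the genotype differences was not tested. Xist was high in every R150X library and at most 2.75 CPM in WT. The allele and the sex of the cells therefore cannot be told apart in the interaction. Without genes on chromosomes X and Y, 1236 genes were called, but leaving these genes out cannot remove effects of sex on other chromosomes.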

How the data were processed

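Total RNA of mouse bone marrow-derived macrophages was sequenced in 12 libraries. The authors deposited whole-number read counts per gene, not normalised; the submitters' processing notes name FastQC, HISAT2, featureCounts, DESeq2 and the builds mm10 and GRCm38, with no versions. The annotation release, the strand setting and the treatment of reads that match several genes are not given in the sources used here. Overlapping and antisense genes therefore cannot be told apart. Of 54532 gene identifiers, 54495 matched GENCODE M21, and the 37 others held 0.00357% of the counts.

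Genes were kept by edgeR's filterByExpr (minimum count 10, by group), scaled by TMM (factors 0.969 to 1.05) and fitted over all 12 libraries with a coefficient per group, without a block for replicate number (R 4.3.3, edgeR 4.0.16, limma 3.58.1). Every adjusted p is a Benjamini-Hochberg value over the 15338 genes of a contrast, from the quasi-likelihood test of edgeR, at a threshold of 0.05. SE is the absolute log2 fold change divided by the square root of that test's F statistic. It is not a standard error taken from the fit, and it may understate the error of genes nearly absent in a group. The biological coefficient of variation was 0.0608. The fitting script was tested on simulated data. DESeq2 (1.42.0), other scalings and filters, the replicate block, the R150X libraries alone, the X and Y chromosomes left out, and each library left out in turn were alternatives. Count intervals are exact at 95% (scipy 1.17.1).

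The members and the gene lists were chosen with earlier results of these data known. Genes named are Gpnmb; the 10 highest and lowest log2 fold changes above 5 CPM with no overlap between groups; the 8 largest changes above 500 CPM; up to 6 changed members of each list by adjusted p and up to 3 that did not pass; and, for the interaction, the 6 highest and lowest and up to 3 of each list. Not every list member that this rule allows is named. Some list members outside it are named for their known role and were chosen after their values were seen. Some genes of the lists are counted in them but not reported singly here.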

Additional observations from a re-analysis of the deposited data

Results flagged for a closer look

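The genes below are those named in the text whose response to OxLDL differed between genotypes by the interaction test (edgeR's quasi-likelihood test, Benjamini-Hochberg adjusted p under 0.05, 8.32% of all genes tested). Values in brackets are log2 fold changes of R150X less those of WT. Lower and higher mean lower and higher in R150X. A gene in several lists is given once.

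In the Gpnmb and MiT/TFE factors list, the response was lower for Gpnmb (-0.36) and Tfeb (-0.40). In the scavenger receptors and lipoprotein uptake list, the response was lower for Cd36 (-0.66), Scarb2 (-0.27), Cxcl16 (-0.84) and Cd68 (-0.22), and higher for Stab1 (0.28). Stab1 lost its call when any R150X OxLDL or WT untreated library, or WT OxLDL replicate 1 or 2, was left out. In the PPAR targets, lipid droplets and lipolysis list, the response was lower for Pparg (-0.38), Fabp4 (-0.57), Fabp5 (-0.48), Lpl (-0.48), Plin2 (-0.51), Mgll (-0.45), Acsl1 (-0.45) and Lipa (-0.30), and higher for G0s2 (1.78) and Dgat2 (0.92). In the LXR targets and cholesterol efflux list, the response was lower for Abcg1 (-0.38), Apoe (-0.51) and Mylip (-0.45), and higher for Scd1 (1.21). In the cholesterol biosynthesis and SREBP2 list, the response was lower for Cyp51 (-0.39). In the fatty acid synthesis, desaturation and elongation list, the response was lower for Acss2 (-0.91). In the fatty acid beta-oxidation list, the response was lower for Cpt1a (-0.29) and Acaa1a (-0.43). In the NRF2 antioxidant response list, the response was lower for Nfe2l2 (-0.43), Gclm (-0.41), Srxn1 (-0.51), Prdx1 (-0.71) and Gsr (-0.70). In the lysosomal hydrolases and membrane proteins list, the response was lower for Ctsb (-0.30), Ctsd (-0.36), Ctss (-0.65), Ctsz (-0.34), Psap (-0.42), Npc2 (-0.36) and Cd63 (-0.31). In the V-ATPase subunits list, the response was lower for Atp6v0d2 (-0.43), and higher for Atp6v0e2 (1.75). The call of Atp6v0e2 was lost without WT OxLDL replicate 1 or 2 or WT untreated replicate 2 or 3. In the lipid-associated macrophage genes list, the response was lower for Trem2 (-0.36), Tyrobp (-0.44), Spp1 (-0.45), Lgals3 (-0.62), Cd9 (-0.51), Itgax (-0.48), Clec7a (-0.69), Mmp12 (-0.61), Vim (-0.22) and Syngr1 (-0.33).

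In the cytokines, chemokines and NF-kB targets list, the response was lower for Il1b (-2.28), Ccl2 (-0.58), Tnfaip3 (-0.29) and Ptgs2 (-1.25), and higher for Il1rn (0.48). In the immediate-early genes and phosphatases list, the response was lower for Atf3 (-0.53), and higher for Nr4a1 (0.67). In the Toll-like receptors and adaptors list, the response was lower for Tlr13 (-0.39) and Cd14 (-0.63). In the interferon list, the response was lower for Irf1 (-0.68) and Gbp2 (-0.75), and higher for Irf7 (0.46) and Iigp1 (1.49). In the MHC class II presentation and costimulation list, the response was lower for Cd74 (-1.39), H2-Aa (-1.33), H2-Ab1 (-1.19), H2-Eb1 (-1.45) and H2-DMa (-0.72). In the MHC class I presentation and immunoproteasome list, the response was lower for H2-D1 (-0.34). In the alternative activation list, the response was higher for Mrc1 (0.34). In the macrophage identity list, the response was lower for Spi1 (-0.32), Cebpa (-0.45), Csf1r (-0.50), Itgam (-0.44), Lyz2 (-0.38), Mertk (-0.35) and Fcgr1 (-0.35). In the apoptotic cell uptake list, the response was lower for C1qa (-0.55) and C1qb (-0.59), and higher for Itgb3 (0.40). The call of Itgb3 was lost without R150X OxLDL replicate 3, WT OxLDL replicate 1 or WT untreated replicate 1. In the integrins, matrix and proteases list, the response was lower for Itgal (-0.26), Mmp9 (-1.30), Mmp14 (-0.26) and Timp1 (-0.44). In the iron handling list, the response was lower for Tfrc (-0.64) and Lcn2 (-1.04).

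In the integrated stress response (ATF4) list, the response was higher for Atf4 (0.28), Trib3 (1.15), Asns (0.88), Psat1 (0.52), Phgdh (0.90), Psph (0.59), Slc7a5 (0.41), Aars (0.61) and Sars (0.30). In the cell cycle and DNA replication list, the response was lower for Pcna (-0.39). In the NADPH oxidase list, the response was lower for Cybb (-0.36). In the neutrophil markers list, the response was lower for S100a9 (-0.57). In the fibroblast and stromal markers list, the response was higher for Col1a1 (0.43) and Postn (0.56). In the erythroid and megakaryocyte markers list, the response was lower for Ppbp (-3.86) and Itga2b (-2.22). In the sex-linked markers list, the response was higher for Xist (5.19). For genes in none of the lists, the response was lower for Anpep (-0.24), C3 (-0.35), Cat (-0.33), Cd300a (-0.32), Cd5l (-0.40), Cxcl5 (-0.88), Fgl2 (-0.32), Lilr4b (-0.31), Mcemp1 (-1.54), Neat1 (-0.27), Parp14 (-0.31), Rps27a (-1.93), Sod2 (-0.59), Sort1 (-0.32) and Tarm1 (-3.62), and higher for Adamts15 (1.58), Epb41l4b (1.56) and Sez6l2 (1.63). The value of Tarm1 rests on 1 count in treated R150X libraries, and that of Xist on 0 to 1 counts a library in treated WT, so neither measures a size. Genotype and the sex of the cells cannot be told apart in these differences.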

How the results depend on the processing

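The total count stayed within 1.5 times for all 3 comparisons under every alternative run, but library size alone turned the interaction from mostly lower to mostly higher. Genes changed in R150X, 5983 by the reported fit, were 5596 with DESeq2, 5285 in the R150X libraries alone and 5033 to 5883 when a library was left out. Interactions, 1276, were 1274 with DESeq2, 1512 without the filter and 882 to 1397 when a library was left out. The WT count, 7025, ranged from 6058 to 6271 when a library was left out. Library size alone changed the share of higher calls from 37.6% to 66.5% in the interaction, from 49.6% to 31.6% in WT and from 47.2% to 42.7% in R150X. The replicate block gave 5882 genes in R150X (5741 shared), 1143 interactions and 6848 in WT. The deviations of R150X libraries of the same number had correlations of -0.0418, -0.0199 and -0.00692, so the numbers were not taken to pair them.

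For single named genes in R150X, 4589 alternative values kept the side of the threshold, 50 no longer passed and 47 newly passed. No called value changed sign, and the sign of values not called was not checked. For the difference, 6096 kept the side of the threshold, 202 no longer passed and 60 newly passed, with signs checked in the same way. Calls lost under at least 1 alternative included Lipe, Lyz2, Rac1 and Tfec. Of list counts and medians, 1616 were unchanged within the limits used and 63 moved. Among them were the near-zero medians of the immediate-early, alternative activation, apoptotic uptake and prostaglandin lists. TLR genes that rose were 2 by the reported fit and 1 with library size alone. Without chromosomes X and Y they were 0, since both genes lie on chromosome X and were left out of that fit. Depth limits genes with few counts, where a fold rests on single reads. With 3 libraries a group of unstated origin, the spread may be technical.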

Other observations

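Several genes outside the lists also moved in R150X macrophages with OxLDL; they were chosen after their values were seen. Among genes that rose, Mme, a membrane peptidase, went from 35.2, 38.8 and 38.2 CPM to 120, 111 and 111 CPM (log2 fold change 1.61), and Cd5l, a secreted macrophage protein, from 90.7, 80.6 and 82.7 CPM to 248, 242 and 251 CPM (1.54). The groups did not overlap for either. Cat, catalase (1.23), Hpse, heparanase (1.24), the sorting receptor Sort1 (1.02), the inhibitory receptors Cd300a (1.40) and Lilr4b (1.11), the nuclear RNA Neat1 (0.95) and Anpep, aminopeptidase N (0.84), rose as well.

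Among genes that fell, Clec4e, a receptor for mycobacterial glycolipid, went from 352, 354 and 338 CPM to 6.78, 5.44 and 4.08 CPM (log2 fold change -6.00), and C3, the central complement protein, from 322, 367 and 387 CPM to 24.8, 22.6 and 22.2 CPM (-3.95). No treated library reached an untreated one. The chemokine Cxcl5 (-3.33), the NAD-degrading enzyme Cd38 (-3.26), Fgl2 (-2.46), Slamf9 (-3.76), Parp14 (-2.08), and Irak3 (-2.49) and Socs3 (-1.98), inhibitors of receptor signalling, fell as well.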
